A study of Mus musculus with 6 samples.

Results

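The cytosolic heat shock genes examined here were 10 genes chosen by name, Hspa1a, Hspa1b, Hsph1, Dnajb1, Hspb1, Hsp90aa1, Bag3, Hspa8, Hspe1 and Hspd1. All 10 were found by symbol among the 44713 genes of the table, and all 10 were among the 12760 genes that passed the filter on low counts. The label does not hold for the whole group, since Hspd1 and Hspe1 encode the chaperonin of the mitochondrial matrix. Following their textbook behaviour, 7 genes were handled as inducible by stress (Hspa1a, Hspa1b, Hsph1, Dnajb1, Hspb1, Hsp90aa1 and Bag3) and 3 as constitutive (Hspa8, Hspd1 and Hspe1). Hspd1 and Hspe1 are also known to respond to heat. Total RNA of pancreatic islets from 3 db/db mice and 3 db/m mice was sequenced after removal of rRNA. All mice were male, 10 weeks old and fed a normal diet, and all islets were isolated with collagenase and a density gradient and used directly. The db/db mice, labelled Lepr-/-, lack a working leptin receptor in the whole body and become obese and diabetic. The db/m mice were their non-diabetic littermates, which the labels call wild type. The strain is C57BL/6 in the labels and BKS in the methods of the study.

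Heat shock proteins bind unfolded proteins and help them fold, hold them soluble or pass them to degradation. When unfolded proteins accumulate, the transcription factor HSF1 forms trimers and binds heat shock elements, which are inverted repeats of the bases GAA, in front of the inducible genes. Constitutive family members such as Hspa8 serve folding and transport in unstressed cells. The Hsp70 proteins work in a cycle with J-domain proteins, which load the substrate, and with nucleotide exchange factors, which release it. The inducible genes are known as markers of protein folding stress in the cytosol.

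Between 15641797 and 20614531 reads per library were counted on genes. The floor of 3 counts was between 0.110 and 0.241 CPM, where CPM is the count scaled to a common library size after TMM normalization, which sets libraries level by the bulk of their genes. db/db replicate 1 and db/m replicate 1 stood apart, with TMM factors of 0.605 and 1.75 against 0.919 to 1.06 in the other libraries. A list of 19 acinar markers took 54.9% to 59.1% of the reads in db/db libraries and 42.5% to 53.5% in db/m libraries. A list of 15 β-cell markers took 0.153% to 0.654% in db/db and 0.791% to 4.49% in db/m, so that β-cell markers were a small part of every library labelled as islets. No listed marker was at 0 in all 6 libraries. In such bulk samples fewer cells of a type and less RNA per cell cannot be told apart.

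The stretches in front of the genes are shown because they hold the letters of heat shock elements, for which the inducible genes are known. They were read from the RefSeq promoters of GRCm38.p6, for the 250 bases before each annotated start, and 8 of the 10 genes had an entry. Hsp90aa1 and Hspa8 had none. Capitals mark each pair of inverted units, written GAANNTTC or TTCNNGAA. Each of these motifs reads the same on both strands, and neighbouring pairs may share a unit.
Hspa1a (chr17:34972242-34972271, reverse strand): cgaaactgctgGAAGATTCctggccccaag
Hspa1b (chr17:34959324-34959353, reverse strand): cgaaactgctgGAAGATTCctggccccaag
Hsph1 (chr5:149636351-149636380, reverse strand): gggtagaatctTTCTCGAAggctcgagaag
Hspb1 (chr5:135887796-135887835, forward strand): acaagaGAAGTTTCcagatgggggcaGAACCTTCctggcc
Hspe1 (chr1:55088053-55088082, forward strand): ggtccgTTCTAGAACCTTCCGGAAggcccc

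A pair of units was present in front of 6 of the 8 genes, namely Hspa1a, Hspa1b, Hsph1, Hspb1, Hspd1 and Hspe1. Over all 27025 genes with an entry, 14.5% held such a pair. Dnajb1 and Bag3 held none in these windows, which says only that these letters were not found there. The capitals in front of Hspe1 span 18 bases and hold an unbroken row of units. Hspd1 lies head to head with Hspe1, and 1 of its 2 annotated promoter windows holds the same row on the other strand. A pair with a further unit joined to it (GAANNTTC followed by NNGAA, either strand) was found in 0.466% of 32851 promoter windows, and among these genes for Hspd1 and Hspe1. Hspa1a and Hspa1b lie 10120 bases apart on chromosome 17, and their 250 bases before the start differ at 3 positions.

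Of the 10 genes, 9 had a lower mean fitted level in db/db than in db/m islets. None passed an adjusted p of 0.05 in edgeR's quasi-likelihood test, a threshold passed by 0.619% of all tested genes in either direction and by 0.486% with a lower value in db/db. Without adjustment, 6 genes had a p under 0.05 and were lower in db/db (Hspa1a, Hspa1b, Hsph1, Dnajb1, Hsp90aa1 and Hspd1), and 0 were higher. Among all tested genes 14.9% had such a p, 9.89% lower and 5.04% higher. By DESeq2, 3 of the 10 genes passed an adjusted p of 0.05 (Hspa1a, Hsph1 and Dnajb1), all lower in db/db, and 5 had an unadjusted p under 0.05. Of the tested genes that DESeq2 also fitted, 4.1% passed its adjusted threshold with a lower value in db/db, and 9.61% had such an unadjusted p. For 5 of the 10 genes, all of them inducible, the 3 db/db values lay below the 3 db/m values, against 12.6% of all tested genes in this direction and 21.1% in either. The median log2 fold change was -0.91 over the 10 genes, -1.71 over the inducible and -0.49 over the constitutive genes, and -9.3e-04 over all tested genes. The constitutive median lay between -0.94 (without db/db replicate 1) and -0.19 (without db/db replicate 2) with 1 library left out. Of the 10 genes, 3 were lower at an unadjusted p under 0.05 without db/db replicate 3 and 3 without db/m replicate 2, against 7.62% and 7.26% of all tested genes. Without db/db replicate 1 there were 8, against 7.18% of all tested genes, and without db/m replicate 1 there were 5, against 6.27%. In these fits without a library that stood apart, all db/db values lay below all db/m values for 8 of the 10 genes in each, against 15.9% and 14.5% of all tested genes.

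**Figure D1:**
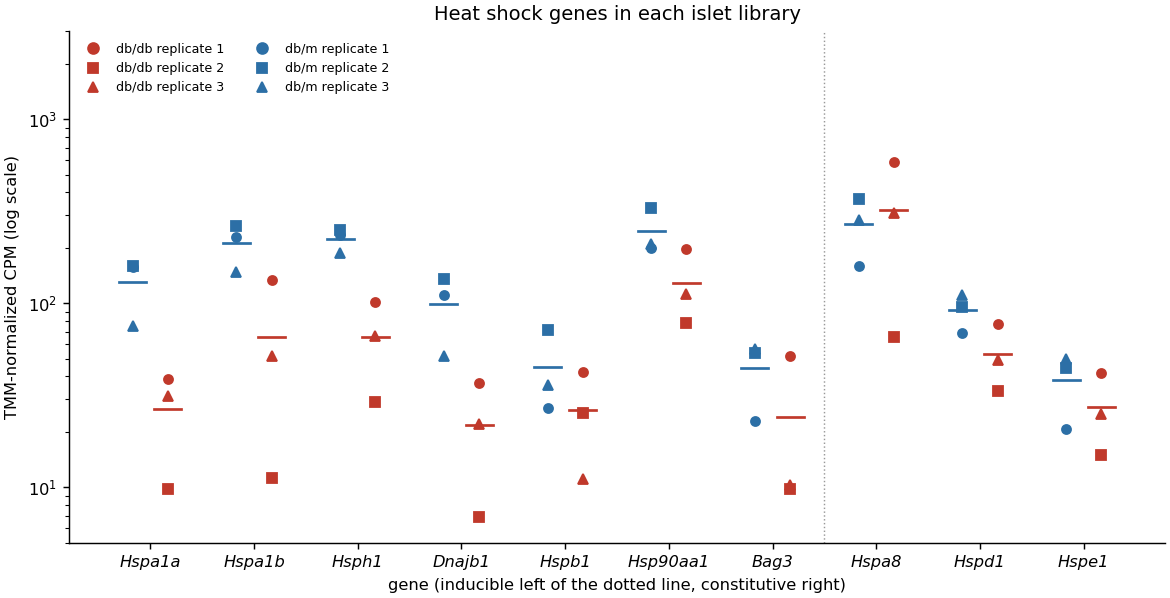
TMM-normalized CPM on a log axis for each of the 10 heat shock genes, with 1 point per library (db/m left and blue, db/db right and red) and a line at each group mean. Hspa1a, Hspa1b, Hsph1, Dnajb1 and Hsp90aa1 do not overlap between groups, whereas Hspa8 ranges from 65.5 to 586 CPM in db/db.

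Hspa1a and Hspa1b encode the stress-inducible cytosolic Hsp70. Hspa1a, a gene of 1 exon on chromosome 17 of GRCm38.p6 from 34969359 to 34972156, had 38.7, 9.81 and 31.3 CPM in db/db replicates 1, 2 and 3. It had 156, 158 and 75.3 CPM in db/m replicates 1, 2 and 3. Every db/db value was below every db/m value. The mean was 26.6 ± 15.002 CPM (SD, n = 3) in db/db and 129.99 ± 47.4 (SD, n = 3) in db/m. Hspa1a was 4.90-fold lower in db/db, a log2 fold change of -2.29 ± 0.50 (SE is the standard error of the fit, unadjusted p = 0.00131, adjusted p = 0.0819 by edgeR). The log2 fold change stayed between -3.06 and -1.88 over the 14 alternative settings, and the adjusted p lay between 3.8e-06 and 0.312.

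Hspa1b, also of 1 exon, lies from 34956429 to 34959238 on chromosome 17. Its values were 134, 11.2 and 51.6 CPM in db/db and 228, 264 and 148 CPM in db/m, in the order of the replicates. The groups did not overlap, although db/db replicate 1 and db/m replicate 3 came close to each other. Its log2 fold change was -1.71 ± 0.70 (SE, unadjusted p = 0.0368, adjusted p = 0.296 by edgeR). The unadjusted p was 0.105 without db/db replicate 3, 0.0568 without db/m replicate 1 and 0.0946 without db/m replicate 2, and it was 0.0652 by DESeq2. The pair shares 62.4% of the 50-base stretches of Hspa1a, so that their reads cannot be fully told apart. Summed to 1 gene, a setting added after seeing the data, the log2 fold change was -1.90 ± 0.63 (SE, unadjusted p = 0.0147, adjusted p = 0.208 by edgeR). Hspa1a took 22.4% to 46.7% of the counts of the pair in db/db libraries and 33.7% to 40.7% in db/m libraries.

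Hspa8, on chromosome 9 from 40801276 to 40805202, encodes the constitutive Hsp70 of the cytosol. It had 586, 65.5 and 310.3 CPM in db/db and 159, 368 and 283 CPM in db/m. The db/db libraries held both the highest and the lowest value of the 6, and the groups overlapped. The log2 fold change was 0.25 ± 0.65 (SE, adjusted p = 0.883 by edgeR). Its sign depended on single libraries and on the scaling. It was -0.52 without db/db replicate 1, -4.7e-03 without db/m replicate 1 and -0.42 when scaled by library size alone. Of the 50-base stretches of Hspa8, 90.3% occur elsewhere in the genome, and 85.7% occur in the pseudogene Gm15459. Gm15459, picked once its values were known, had 51 to 273 counts, which is 3.24% to 4.65% of the counts of Hspa8.

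Dnajb1 encodes the J-domain protein that stimulates the ATPase of Hsp70 and is itself a heat shock gene. It lies on chromosome 8 from 83608175 to 83612653. Its values were 36.8, 6.88 and 22.1 CPM in db/db and 110.1, 136 and 51.4 CPM in db/m. All db/db values were below all db/m values, and db/db replicate 2 was the lowest library. Dnajb1 was 4.54-fold lower in db/db, with a log2 fold change of -2.18 ± 0.57 (SE, unadjusted p = 0.00399, adjusted p = 0.120 by edgeR).

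Hsph1 encodes Hsp110, which exchanges the nucleotide of Hsp70 and holds unfolded proteins. It lies on chromosome 5 from 149616843 to 149636498, and none of its 50-base stretches occurs elsewhere in the genome. Hsph1 had 102, 29.1 and 66.2 CPM in db/db and 234, 250.1 and 188 CPM in db/m. The groups did not overlap, and db/db replicate 2 was again the lowest library. For Hsph1 the log2 fold change was -1.77 ± 0.42 (SE, unadjusted p = 0.00221, adjusted p = 0.0977 by edgeR). Hspa1a, Hsph1 and Dnajb1 were the genes of the group with an unadjusted p under 0.05 in each of the 14 alternative settings. In single settings 5.68% to 18.6% of all tested genes were lower in db/db at such a p. The share of all genes that kept it in every setting was not worked out, and the settings reuse the same 6 libraries.

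Bag3 encodes a nucleotide exchange factor of Hsp70 that directs clients to autophagy. On chromosome 7 from 128523583 to 128546981, it had 51.9, 9.75 and 10.3 CPM in db/db and 23.0, 53.6 and 56.3 CPM in db/m. db/db replicate 1 was at the level of db/m replicates 2 and 3, so that the groups overlapped. The log2 fold change was -0.89 ± 0.64 (SE, adjusted p = 0.543 by edgeR). Without db/db replicate 1 it was -2.14 (unadjusted p = 0.00106 by edgeR). It was -0.51 (unadjusted p = 0.460) without db/db replicate 2, -0.52 (unadjusted p = 0.457) without db/db replicate 3, and -1.18, -0.69 and -0.67 without db/m replicates 1, 2 and 3.

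Hsp90aa1 encodes the inducible cytosolic Hsp90, which matures kinases and steroid receptors. It lies on chromosome 12 from 110691036 to 110696395. It had 197, 78.3 and 112 CPM in db/db and 199.8, 329 and 209 CPM in db/m. The groups did not overlap, but db/db replicate 1 and db/m replicate 1 were almost equal. Hsp90aa1 had a fitted log2 fold change of -0.93 ± 0.38 (SE, unadjusted p = 0.0373, adjusted p = 0.297 by edgeR). The unadjusted p was 0.141 without db/db replicate 2, 0.124 without db/db replicate 3 and 0.163 without db/m replicate 2. Of its 50-base stretches 82.0% occur elsewhere, and its pseudogene Gm12346, chosen after its values were seen, had 0.808% to 2.24% as many counts.

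Hspb1 encodes the small heat shock protein Hsp25, which holds unfolded proteins without using ATP. On chromosome 5 from 135887919 to 135889563, it had 42.2, 25.5 and 11.2 CPM in db/db and 26.9, 71.9 and 36.0 CPM in db/m. The groups overlapped. The log2 fold change was -0.77 ± 0.50 (SE, adjusted p = 0.497 by edgeR), and single libraries moved it in both directions. It was -1.28 (unadjusted p = 0.0361) without db/db replicate 1, -0.40 (unadjusted p = 0.410) without db/db replicate 3 and -0.23 (unadjusted p = 0.654) without db/m replicate 2. Its pseudogene Hsp25-ps1, which shares 68.5% of its 50-base stretches, had at most 11 counts in a library.

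Hspd1 and Hspe1 encode Hsp60 and Hsp10, the ring and the lid of the mitochondrial chaperonin. They lie on chromosome 1 from 55077833 to 55088243 and from 55088148 to 55091317, on opposite strands with 96 bases in common. Whether the counting used the strand is not given in the sources used here, so reads on these bases may have gone to either gene. Hspd1 had 76.7, 33.5 and 49.1 CPM in db/db and 68.5, 95.8 and 111 CPM in db/m, with an overlap of db/db replicate 1 and db/m replicate 1. Its log2 fold change was -0.79 ± 0.34 (SE, unadjusted p = 0.0439, adjusted p = 0.317 by edgeR). The unadjusted p of Hspd1 was 0.0218 without db/m replicate 1 and 0.00893 without db/db replicate 1, and lay between 0.106 and 0.166 without any 1 of the other 4 libraries. Hspe1 had 41.9, 14.9 and 25.2 CPM in db/db and 20.8, 44.6 and 49.98 CPM in db/m, with a log2 fold change of -0.49 ± 0.43 (SE, adjusted p = 0.615 by edgeR). The values of Hspe1 overlapped between groups. Its log2 fold change was -0.94 without db/db replicate 1, -0.19 without db/db replicate 2, and -0.77 and -0.25 without db/m replicates 1 and 3.

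**Figure D2:**
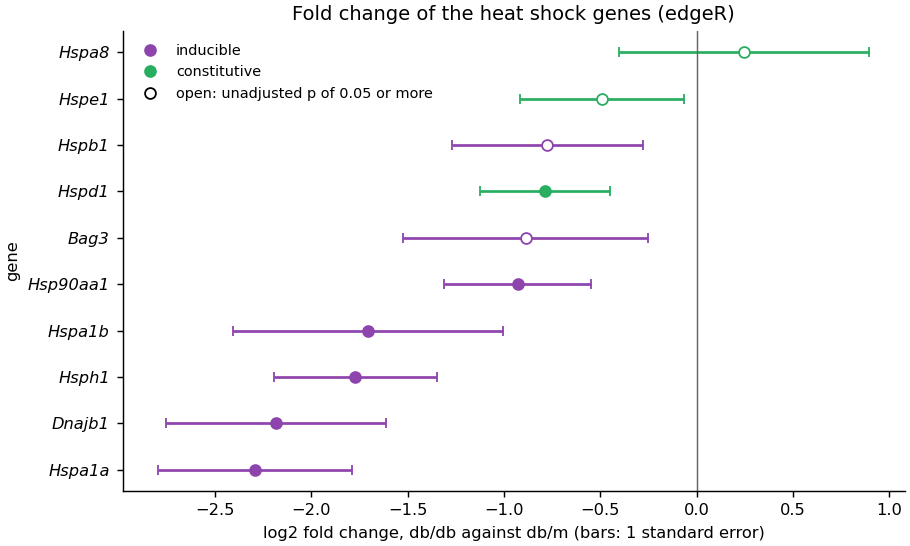
Log2 fold change of db/db against db/m islets from edgeR for each heat shock gene, with bars of 1 standard error, inducible genes in purple and constitutive genes in green. The values run from -2.29 for Hspa1a to 0.25 for Hspa8, and open points had an unadjusted p of 0.05 or more.

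The inducible genes were next set against the constitutive genes within each library, as ratios of raw counts that do not depend on the scaling between libraries. The 7 inducible genes together had 0.855, 1.496 and 0.791 times the counts of the 3 constitutive genes in db/db replicates 1, 2 and 3. The ratio was 3.94, 2.48 and 1.72 in db/m replicates 1, 2 and 3. Every db/m library was above every db/db library. The difference between the median log2 fold changes of the classes, inducible minus constitutive, was -1.21 and lay between -1.62 and -0.79 over the alternatives. This difference between the classes was not tested, because the genes were chosen with earlier results known.

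Single pairs of genes were compared in the same way. For Hspa1a and Hspa1b together against Hspa8 the ratio was 0.294, 0.320 and 0.267 in db/db and 2.42, 1.15 and 0.788 in db/m. The ratio varied little among the db/db libraries, while the level of Hspa8 in them ranged from 65.5 to 586 CPM. The ratio of Dnajb1 to Hspa8 was 0.0628, 0.105 and 0.0711 in db/db and 0.694, 0.370 and 0.182 in db/m. The inducible Hsp90aa1 against Hsp90ab1, the constitutive cytosolic Hsp90, gave 0.474, 0.238 and 0.335 in db/db and 0.638, 0.730 and 0.669 in db/m. For each of these 3 ratios the groups did not overlap. The ratio of Hspd1 to Hspe1 was 1.83, 2.25 and 1.95 in db/db and 3.30, 2.15 and 2.21 in db/m, and its groups overlapped. Two-sided exact permutation tests of the log2 ratios gave p = 0.1 for each of the first 3 ratios and p = 0.3 for Hspd1 to Hspe1 (0.133 and 0.3 adjusted over the 4 ratios). The smallest p that 3 mice against 3 allow is 0.1, and the ratios were chosen after values had been seen.

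**Figure D3:**
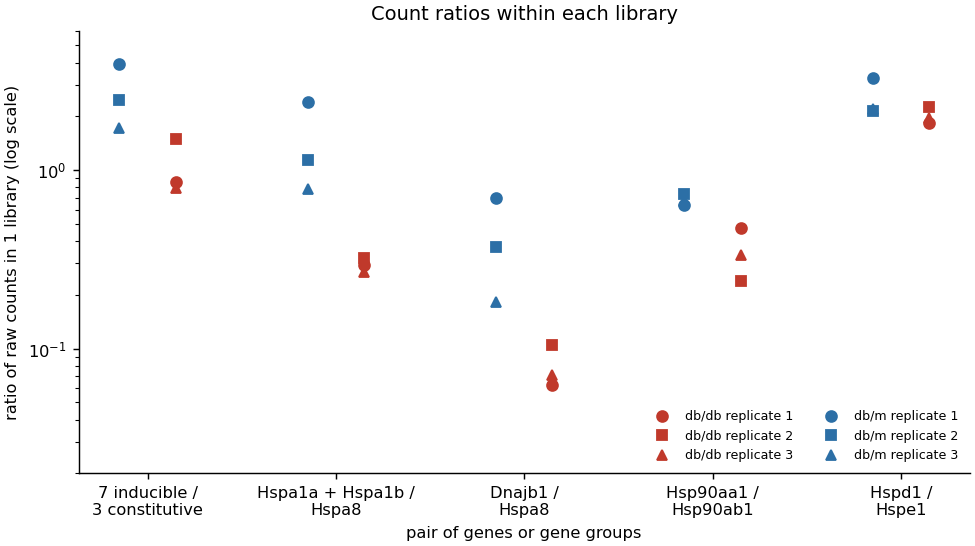
Ratios of raw counts within each library on a log axis, with 1 point per library (db/m left and blue, db/db right and red). The ratio of inducible to constitutive genes lies between 0.791 and 1.496 in db/db and between 1.72 and 3.94 in db/m, and the ratio of Hspd1 to Hspe1 overlaps.

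Together the 10 genes took 0.0790%, 0.0282% and 0.0632% of all counted reads in db/db and 0.214%, 0.188% and 0.117% in db/m. db/db replicate 2 was the lowest library for 9 of the 10 genes, and db/db replicate 3 was the lowest for Hspb1. The mean log2(CPM + 1) of the inducible genes was 6.16, 4.198 and 5.03 in db/db and 6.69, 7.25 and 6.501 in db/m. That of the constitutive genes was 6.97, 5.05 and 6.21 in db/db and 5.96, 6.88 and 6.87 in db/m. The spread between libraries of 1 group was therefore larger in db/db, with an SD of 0.98 for the inducible genes against 0.39 in db/m.

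Levels of different genes were compared as CPM per kilobase of merged exons. In db/m islets the order of the mean levels was Hspa8 (128), Hsp90aa1 (86.2), Hspa1b (75.9), Hsph1 (59.3), Hspe1 (50.04), Hspb1 (49.8), Hspa1a (46.5), Hspd1 (35.4), Dnajb1 (30.8) and Bag3 (17.1). In db/db islets it was Hspa8 (152), Hsp90aa1 (45.3), Hspe1 (35.6), Hspb1 (29.1), Hspa1b (23.3), Hspd1 (20.5), Hsph1 (17.4), Hspa1a (9.50), Bag3 (9.25) and Dnajb1 (6.79). The ranges over the 3 mice of every pair of neighbours overlapped in both orders. Both genes of a pair come from the same libraries, so overlap of ranges cannot tell whether their levels differ. Hspa8, for example, was above Hsp90aa1 in every library, and the other neighbours were not compared within libraries. Hspa8 had the highest mean of the 10 in either group.

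The other genes of the chaperone network were taken from 7 lists with 85 genes, of which 76 were tested. None of these 76 passed an adjusted p of 0.05 from edgeR, and 3 did by DESeq2 (Hspa12a, Dnaja4 and Grpel1), which called 4.98% of all tested genes. At an unadjusted p under 0.05, 7 were lower and 4 higher in db/db by edgeR. These 11 genes are 14.5% of the 76, near the 14.9% of all tested genes. Of the heat shock factors, 4 were tested and 0 had an unadjusted p under 0.05. Hsf1 had 13.6 ± 1.07 CPM (SD, n = 3) in db/db and 11.8 ± 0.417 (SD, n = 3) in db/m, with a log2 fold change of 0.20 ± 0.21 (SE, adjusted p = 0.680 by edgeR) that was -0.36 when scaled by library size alone. The CPM of Hsf1 in all db/db libraries were above those in all db/m libraries, as for 1089 of the 12760 tested genes. Hsf2 had a log2 fold change of -0.32 ± 0.27 (SE, adjusted p = 0.606 by edgeR).

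In the rest of the Hsp70 system 3 of 15 tested genes had an unadjusted p under 0.05, all lower in db/db, and the median log2 fold change was -0.16. They were Hspa12a (-3.16), Hspa2 (-1.98) and Bag2 (-0.97). Hspa12a, a divergent relative of Hsp70, had 1, 33 and 14 counts in db/db and 447, 118 and 83 counts in db/m, and its CPM did not overlap between groups. Hspa2, with 1, 17 and 22 counts in db/db and 113, 85 and 24 counts in db/m, had CPM that overlapped. Hspa4, a relative of Hsph1, had a log2 fold change of 0.08 ± 0.23 (SE, adjusted p = 0.898 by edgeR), which was negative in 3 of the 14 alternatives. Among other J-domain proteins 3 of 16 genes had an unadjusted p under 0.05, all lower, with Dnaja4 at -2.28, Dnajb4 at -1.41 and Dnajb5 at -1.05. Dnaja4 came closest to the threshold, with 1.18 ± 0.296 CPM (SD, n = 3) in db/db and 5.76 ± 2.41 (SD, n = 3) in db/m (adjusted p = 0.0569 from edgeR). Dnaja1, the main constitutive J-domain partner of Hspa8, had a log2 fold change of -0.09 ± 0.59 (SE, adjusted p = 0.957 by edgeR). It was -1.06 without db/db replicate 1 and 0.37, 0.09 and 0.16 without db/db replicate 2, db/db replicate 3 and db/m replicate 2.

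The Hsp90 system had 1 of 14 tested genes at an unadjusted p under 0.05, the myosin chaperone Unc45a, at -0.88. Hsp90ab1 had 359 ± 49.3 CPM (SD, n = 3) in db/db and 358 ± 79.8 (SD, n = 3) in db/m, a log2 fold change of 3.5e-03 ± 0.28 (SE, adjusted p = 0.997 by edgeR), which was negative in 5 of the 14 alternatives and ranged from -0.59 to 0.23. The log2 fold changes were 0.61 for Stip1, which joins Hsp70 to Hsp90, and 0.39 for Chordc1, a further heat shock gene (adjusted p = 0.516 and 0.755 from edgeR). Their values depended on the setting. Stip1 was at 0.15 without db/db replicate 1 and at -0.39 with the acinar score in the model. Chordc1 was at -0.27 without db/db replicate 1, at -0.21 when scaled by library size alone and at -0.92 with the acinar score. Of the other small heat shock proteins 4 of 9 were tested and 0 had an unadjusted p under 0.05.

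The chaperonin and prefoldin list, which folds actin and tubulin, had 10 of 12 tested genes with a positive log2 fold change. With scaling by library size alone 1 of the 12 was positive, and 10 lay above the median of all genes. Of the 12, Cct4 (0.73) had an unadjusted p under 0.05 by edgeR, as it did in 7 of the 14 alternatives. Cct4 was at 0.17 by library size alone and at 0.23 with the acinar score. In the list of other mitochondrial chaperones all 11 genes had a positive log2 fold change, with a median of 0.52. Scaling by library size alone moved the median of all genes to -0.59 and left 5 of the 11 positive, while all 11 stayed above that median. Grpel1, the nucleotide exchange factor of mitochondrial Hsp70, was at 0.96, the iron-sulfur co-chaperone Hscb at 1.29 and Trap1, the mitochondrial Hsp90, at 0.52 (unadjusted p = 0.00664, 0.00849 and 0.0440 from edgeR, n = 3 mice per group). Trap1 was at -0.09 when scaled by library size alone. Hspd1 and Hspe1, at -0.79 and -0.49, thus lay on the other side of the median of all genes from these 11 genes. Whether they differ from them was not tested.

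**Figure D4:**
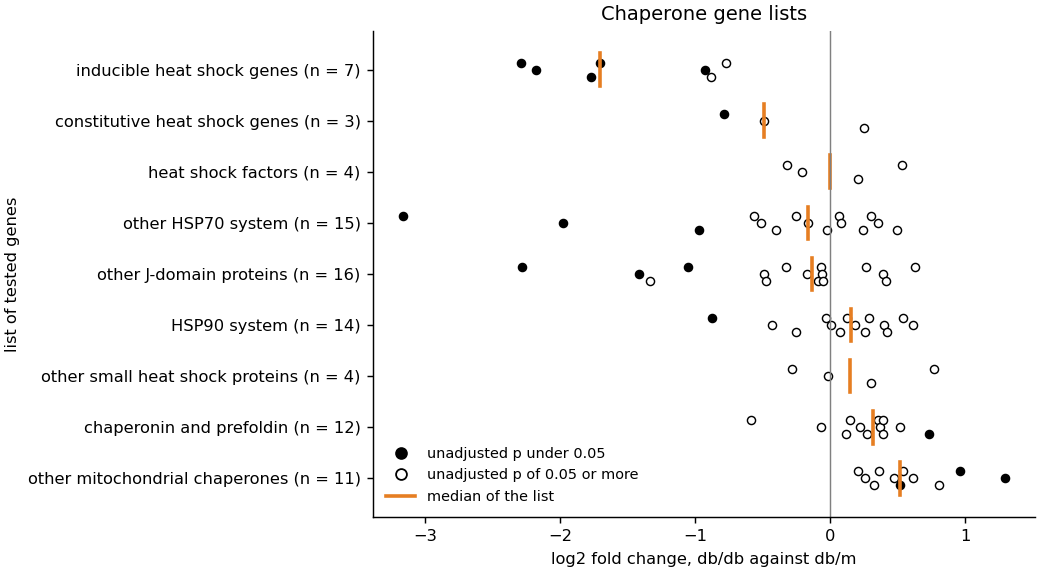
Log2 fold change of db/db against db/m islets for the inducible and constitutive heat shock genes and for 7 lists of other chaperone genes, 1 point per tested gene, filled at an unadjusted p under 0.05, with an orange line at the list's median. The median is -1.71 for the inducible genes and 0.52 for other mitochondrial chaperones.

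The genes whose pattern over the 6 libraries was most like the mean pattern of the inducible genes were looked for among 11475 genes with a mean of at least 1 CPM. Likeness was the root mean square difference of centred log2(CPM + 1) values, for which the median of these genes was 1.09. The closest were Trib1 (0.301), Per1 (0.392), Ccrn4l (0.428), Srsf7 (0.431) and the pseudogene Ap3s1-ps2 (0.445). Trib1, a pseudokinase, had 19.4, 7.59 and 12.4 CPM in db/db and 36.1, 43.0 and 42.4 CPM in db/m. The clock gene Per1 had 48.97, 21.05 and 37.4 CPM in db/db and 65.8, 93.8 and 65.2 CPM in db/m. Like 6 of the 7 inducible genes, both were lowest in db/db replicate 2. Since Trib1 and Per1 were picked for likeness over these same 6 libraries, this is no separate finding. Of the inducible genes themselves, Hsph1 was nearest to their mean pattern (0.233) and Hspb1 farthest (0.761). Each inducible gene is part of this mean, so these distances cannot be set against those of other genes.

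Marker lists were also compared between the groups. Of 22 tested immediate-early genes, which respond within minutes to stimulation, 17 were lower in db/db at an unadjusted p under 0.05 and 0 higher. Their summed level was 196 to 333 CPM in db/db and 1396 to 2367 CPM in db/m. Of 15 β-cell markers 13 were lower and 0 higher at this threshold, and of 19 acinar markers 0 were lower and 2 higher. Among all tested genes 9.89% were lower and 5.04% higher at this threshold. When the acinar score was added to the model, 9 of the 10 heat shock genes had an unadjusted p under 0.05, all lower in db/db, against 5.68% of all tested genes in this direction. The median log2 fold change was then -2.28 for the inducible and -1.49 for the constitutive genes. The difference between the classes was -0.79, against -1.21 without the score. The score, which is the mean log2(CPM + 1) of the acinar markers, did not itself overlap between groups. It was 12.4 to 13.1 in db/db and 11.1 to 12.3 in db/m, so that this fit cannot fully separate the score from the genotype. The part of the β-cell share and of the immediate-early response in the levels of the heat shock genes was not tested.

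**Figure D5:**
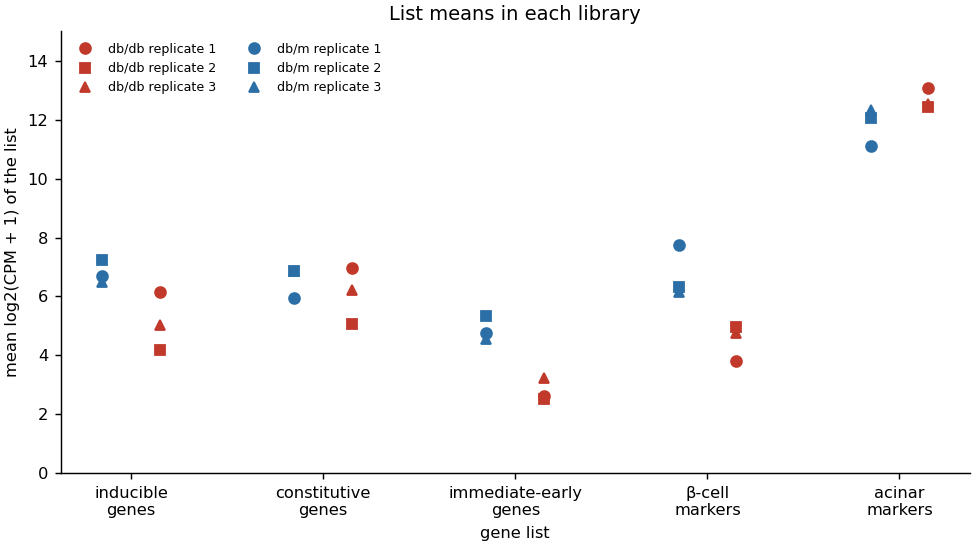
Mean log2(CPM + 1) of the genes of each list in each library (db/m left and blue, db/db right and red). The inducible heat shock genes lie between 4.198 and 6.16 in db/db and between 6.501 and 7.25 in db/m, and the immediate-early genes and β-cell markers are also lower in db/db.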

How the data were processed

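Total RNA from the islets of 3 db/db and 3 db/m mice was sequenced after rRNA depletion. The authors deposited 1 table of counts per gene for the 6 libraries, which was taken to hold raw read counts. The methods of the study name TopHat for mapping to mm10, whereas the submitters' processing notes name HISAT2 2.0.4. The counting program, the annotation and the use of strand are not given in the sources used here. The methods of the study speak of 3 mice per group, so each library was taken as 1 mouse.

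From these counts, genes were filtered with filterByExpr, scaled with TMM and tested with the quasi-likelihood F-test of edgeR 4.0.16 in R 4.3.3, with Benjamini-Hochberg adjustment over all 12760 tested genes and a threshold of 0.05. The standard error (SE) was taken from the fold change and F, as the size of the first over the root of the second. DESeq2 1.42.0 was an alternative. Other alternatives were library size or upper-quartile scaling, no filter, a minimum of 10 counts in 3 libraries, omission of the 25 genes that took 1% or more of any library, a replicate block, an acinar score as covariate, and leaving out each library. Group totals were 16208431 to 20614531 counts in db/db and 15641797 to 19022560 in db/m. Shares of all genes under an alternative were taken over the 12760 genes, as far as that fit held them. Floors cover counting error only.

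The members and lists were chosen with earlier results of these data known. Genes were named as follows. All 10 members and 7 fixed chaperone genes (Hsf1, Hsf2, Hsp90ab1, Hspa4, Dnaja1, Stip1 and Chordc1) were named whatever their values. Up to 5 genes per chaperone list with the smallest unadjusted p under 0.05 were named, and the 5 genes of most similar pattern. Positions, promoters and merged exons came from RefSeq on GRCm38.p6. Stretches of 50 bases shared with other places were found with BLAST 2.17.0. The motif search, the shared stretches and the ratios were added after the counts had been seen. Of the other lists, endocrine markers had 0 of 8 tested genes at an unadjusted p under 0.05, and leukocyte markers 1 higher of 8. Duct markers had 1 lower and 2 higher of 11, and stromal and endothelial markers 1 lower and 1 higher of 13. Among all tested genes 14.9% had such a p.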

Additional observations from a re-analysis of the deposited data

How the results depend on the processing

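Over the 14 alternatives, the log2 fold changes of the 7 inducible genes were negative in 98 of 98 values. Hspa8 changed sign, with -0.42 by library size alone, -0.10 with a replicate block, -1.13 with the acinar score as covariate, -0.52 without db/db replicate 1 and -4.7e-03 without db/m replicate 1, in a range of -0.52 to 0.73 with 1 library left out. The number of all genes past an adjusted p of 0.05, 79 in the report's fit, was 21 by library size, 52 by upper quartiles, 679 by DESeq2, 888 without the filter, 16 with a replicate block, 44 with the acinar covariate and 10 to 333 with 1 library left out. Of the 10 heat shock genes, 3 passed it by DESeq2 (4.98% of all genes) and 4 without the filter (6.29%). With 1 library left out 0 to 1 passed it (Hspa1a without db/m replicate 3), against 0.0784% to 2.58% of all genes. In these fits 3 to 8 were lower at an unadjusted p under 0.05, against 6.27% to 11.3% of all genes. Those without overlap then numbered 4 to 8, all lower, against 14.5% to 20.7% of all genes. By library size 9 had no overlap, all lower, against 25.5% of all genes. Library size moved the inducible median to -2.50 and the median of all genes to -0.59, so that the inducible median relative to all genes was -1.92. The acinar covariate moved the constitutive median to -1.49, and the other chaperone genes at an unadjusted p under 0.05 from 11 to 4. With 1 library left out these numbered 6 to 19. The causes were not tested.

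The replicate numbers shared by the groups are not said to pair mice, and deviations of same-numbered libraries correlated at -0.53, -0.20 and -0.32. With the replicate block 4 of the 10 heat shock genes kept an unadjusted p under 0.05 (Hspa1a, Hspa1b, Hsph1 and Dnajb1). All 4 were lower in db/db, against 6.48% of all tested genes lower at such a p in that fit. The common biological coefficient of variation was 0.355, and the smallest difference that 3 mice per group could show was not worked out. For Hspb1, Bag3 and Hspe1 the groups overlapped, and the unadjusted p was 0.153, 0.196 and 0.275 by edgeR. Hspd1 had a log2 fold change near that of Hspb1 (-0.79 and -0.77) but a smaller SE (0.34 and 0.50).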
